A study of Homo sapiens with 10 samples.

Results

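The genes of cholesterol synthesis and sterol homeostasis described here are 29 genes of the mevalonate pathway, of the steps from squalene to cholesterol, of its control by SREBP and of cholesterol transport. They were taken by gene name from a list drawn up with earlier results of these data known, and all 29 were found among the 57353 gene symbols of the count table and among the 17230 that passed a filter on low counts. They were measured by RNA sequencing in 10 samples of LNCaP-C4-2, a castration-resistant human prostate cancer cell line derived from LNCaP. KD cells (n = 3) carried a lentiviral shRNA against CPT1A, which encodes the carnitine palmitoyltransferase that admits long-chain fatty acids to mitochondrial oxidation. Their control, NT cells (n = 2), carried a scrambled, non-targeting shRNA. OE cells (n = 3) carried a lentivirus with CPT1A cDNA, and their control, EV cells (n = 2), an empty vector. The labels give selection with puromycin at 1 ug/ml for the shRNA experiment and with blasticidin at 5 ug/ml for the cDNA experiment, so vector, drug and line cannot be told apart between EV and NT. Cells were grown to near confluence before RNA was taken. The sources used here describe 1 line of each kind and do not say that the samples of a line came from separate transductions, so p-values measure the spread between samples of a line. In bulk RNA of this kind, fewer cells that express a gene and less RNA per cell cannot be told apart.

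Cells build cholesterol from acetyl-CoA through mevalonate, isoprenoids and squalene, and the last steps turn lanosterol into cholesterol. The transcription factor SREBP-2, encoded by SREBF2, switches on nearly every gene of this route when the membranes of the endoplasmic reticulum are low in sterol. SCAP escorts SREBP to the Golgi for activation, the INSIG proteins hold the complex back when sterols are plentiful, and oxysterols act through the LXR receptors to induce exporters such as ABCA1 and ABCG1. Prostate cancer cells use cholesterol for membranes and as a precursor of androgens, and sterol genes in this tissue are also known to respond to androgens.

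CPT1A itself followed the labels. Its level was 265 and 262 CPM in NT (counts relative to library size, scaled with TMM, a factor that corrects for library composition), 81.2, 86.4 and 86.2 in KD, 326 and 318 in EV and 870, 914 and 861 in OE. Libraries held 23555205 to 28615770 counts. The library KD 2 stood somewhat apart from KD 1 and KD 3, at 6.51 and 6.63 chi-square per degree of freedom, against 1.99 to 4.34 for the other pairs of samples of a line, and counts without it are given below where they moved. To a lesser degree OE 2 stood apart from OE 1 and OE 3, at 3.78 and 4.34, against 2.13 between OE 1 and OE 3. All 9 luminal prostate markers were expressed, with KLK3 at 2350 to 5950 CPM, and their summed level was 6360 to 6640 CPM in NT, 9140 to 9990 in KD, 8730 to 9160 in EV and 12200 to 12700 in OE. The 12 markers of basal, stromal, immune, endothelial and liver cells summed to 16.6 to 17.0 CPM in NT, 22 to 23.7 in KD, 14.9 to 16.4 in EV and 19.7 to 21.9 in OE. Of these, KRT5, COL1A2, CD3E, PECAM1 and ALB had 0 counts in every library, and COL1A1 (8.46 to 15.6 CPM) and VWF (6.28 to 9.46 CPM) made up nearly the whole sum. The luminal sum was lowest in NT and highest in OE, as for many of the sterol genes below, and its part in their differences was not tested.

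The sterol genes were lowest in the NT cells. Both NT libraries lay below the other 8 in 18 of the 29 genes (62.1%), against 18.7% of all genes tested, and above the other 8 in 4 (SC5D, INSIG2, ABCA1 and NPC2, 13.8%), against 18.7%. All 3 OE libraries lay above the other 7 in 11 genes (37.9%), against 18.3% of all genes tested. By mean, NT was the lowest line for 20 genes, OE the highest for 16 and KD the highest for 8. The shares of all genes with these orders by mean were not computed. Summed over the 11 genes from squalene to cholesterol, the level was 786 and 793 CPM in NT, 1072, 1105 and 1046 in KD, 996 and 968 in EV, and 1378, 1421 and 1393 in OE. The sum over the 8 mevalonate and prenyl genes was 265 and 263 CPM in NT, 408, 381 and 393 in KD, 321 and 319 in EV, and 366, 367 and 369 in OE. The lines did not overlap in either sum. The order of the sums differed at the top, with OE leading in the sterol sum and KD in the mevalonate sum. Genes with high levels weigh most in such sums, such as TM7SF2, with means of 308 CPM in OE and 116 in KD. Gene by gene, OE was above KD in 7 of the 11 sterol genes and below in 4. For the 8 mevalonate genes it was 4 and 4. The sum over the 6 transport genes was closer, at 143 and 131 CPM in NT, 145, 152 and 147 in KD, 145 and 143 in EV, and 161, 164 and 158 in OE.

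**Figure D1:**
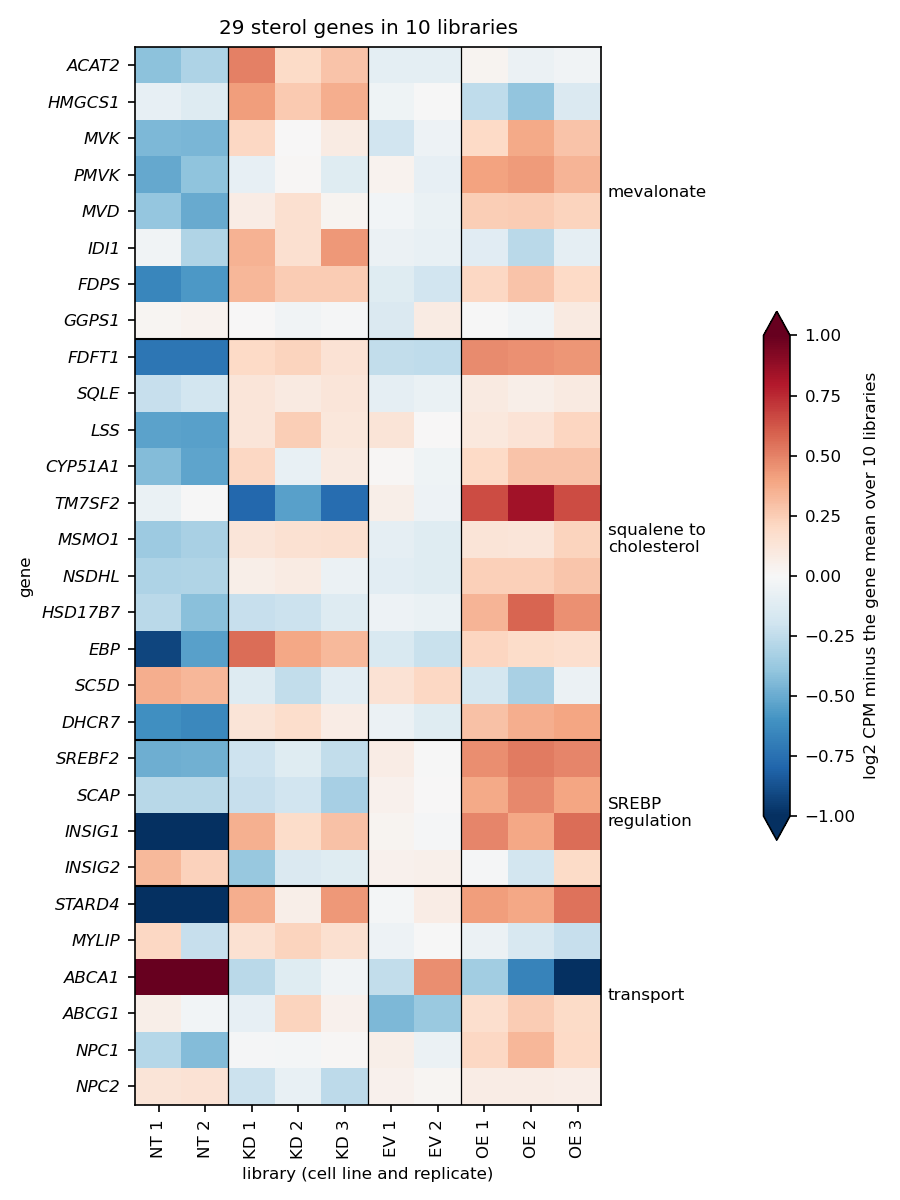
Levels of the 29 genes (rows, grouped by role) in the 10 libraries (columns, grouped by line), as log2 CPM minus the gene's mean over the 10 libraries, with colours saturated past 1 in either direction. The NT columns are blue in most rows, with both NT libraries below the other 8 in 18 of 29 genes, and SC5D, INSIG2, ABCA1 and NPC2 are red there.

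The stretches of DNA before 4 of these genes are shown because 3 of them (INSIG1, STARD4 and EBP) had the largest rises in KD cells and SREBF2 encodes the regulator of the route and held the SREBP motif searched for. They come from RefSeq (GRCh38.p14), are read 5′ to 3′ on the gene's own strand, and run from 250 bases before the RefSeq start to the last base before the gene's first annotated exon. They lie at chr7:155297628-155297775 on the plus strand for INSIG1, chr5:111512591-111512785 on the minus strand for STARD4, chrX:48521558-48521798 on the plus strand for EBP and chr22:41832855-41833104 on the plus strand for SREBF2, where they also overlap an exon of the opposite-strand gene SREBF2-AS1. Capitals mark CCAAT, bound by NF-Y (written ATTGG on the other strand), and in SREBF2 also TCACNCCAC, a form of the sterol regulatory element.
INSIG1: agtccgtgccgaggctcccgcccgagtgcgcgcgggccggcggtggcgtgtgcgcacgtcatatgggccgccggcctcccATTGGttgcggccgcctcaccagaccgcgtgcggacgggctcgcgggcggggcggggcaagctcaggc
STARD4: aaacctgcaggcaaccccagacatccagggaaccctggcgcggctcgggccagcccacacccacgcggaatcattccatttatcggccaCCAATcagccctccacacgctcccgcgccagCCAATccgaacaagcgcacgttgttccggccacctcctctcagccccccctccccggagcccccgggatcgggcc
EBP: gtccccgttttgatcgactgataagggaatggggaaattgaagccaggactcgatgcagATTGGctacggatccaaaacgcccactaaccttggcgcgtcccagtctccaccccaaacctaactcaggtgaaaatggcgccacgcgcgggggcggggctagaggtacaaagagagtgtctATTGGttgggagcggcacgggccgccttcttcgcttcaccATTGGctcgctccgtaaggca
SREBF2: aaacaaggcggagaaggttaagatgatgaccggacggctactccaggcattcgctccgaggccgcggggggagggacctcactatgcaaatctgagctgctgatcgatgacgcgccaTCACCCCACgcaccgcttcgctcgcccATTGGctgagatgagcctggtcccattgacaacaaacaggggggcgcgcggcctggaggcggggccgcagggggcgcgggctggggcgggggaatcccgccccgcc

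Promoters were found by symbol for 25 of the 29 genes, all but ACAT2, FDFT1, SQLE and ABCG1. In the 250 bases before the start, with both strands searched, CCAAT was present in 19 of the 25 (76%), against 37.0% of 27305 genes with a promoter in the table and 41.3% of the 10894 of them tested here. The motif TCACNCCAC was present in 1 of 25 (4.0%, in SREBF2), against 1.09% of all genes and 1.15% of those tested. Its shorter form TCACNCC, which the longer one contains, was present in 8 (32.0%: HMGCS1, MVK, IDI1, MSMO1, NSDHL, SREBF2, INSIG2 and NPC2), against 15.5% and 17.8%. The E-box CACGTG, which reads the same on both strands, was present in 4 (16%: SC5D, SCAP, INSIG1 and ABCA1), against 7.73% and 11.4%. In INSIG1 it lies in the 102 bases cut from the stretch printed above, within the first annotated exon. A match describes these letters only and is not a measured site.

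Knockdown was compared with its control to ask how the sterol genes stood when CPT1A was reduced. Of the 29 genes, 21 passed an adjusted p under 0.0001, the limit of the study, in edgeR's quasi-likelihood test with Benjamini-Hochberg adjustment over the 17230 genes (72.4%, against 29.1% of all genes). Of these, 18 rose and 3 fell (16.4% and 12.8% of all genes). The median log2 fold change was 0.39, against -0.02 over all genes. The rises ranged from 0.30 for SREBF2 to 1.45 for STARD4, and 3 of them (STARD4, INSIG1 and EBP) were at least 1 on the log2 scale. Every adjusted p below comes from this edgeR test, and log2 fold changes are given with their SE. Where 2 lines are said not to overlap, this describes the libraries only. The share of all genes without overlap was not computed. Lines also did not overlap for genes far from the limit, such as GGPS1 in KD against NT (edgeR adjusted p = 0.685) and ACAT2 in OE against EV (edgeR adjusted p = 0.488).

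The 3 largest rises were in genes of sterol sensing, sterol movement and synthesis. INSIG1, which retains the SREBP complex and is itself an SREBP target, was at 54.2 and 53.7 CPM in NT and at 151.8, 134.9 and 145.9 in KD. STARD4, which carries cholesterol between membranes in the cytosol, was at 4.41 and 4.33 CPM in NT and at 12.5, 10.1 and 13.2 in KD. EBP, the isomerase that moves the double bond of the sterol ring, was at 7.77 and 10.1 CPM in NT and at 21.8, 19.3 and 18.5 in KD. In each of the 3 the lowest KD library was well above the higher NT library. INSIG1 rose by 1.42 ± 0.06 (edgeR adjusted p = 1.3e-15), STARD4 by 1.45 ± 0.13 (edgeR adjusted p = 5.38e-10) and EBP by 1.15 ± 0.10 (edgeR adjusted p = 1.07e-09).

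**Figure D2:**
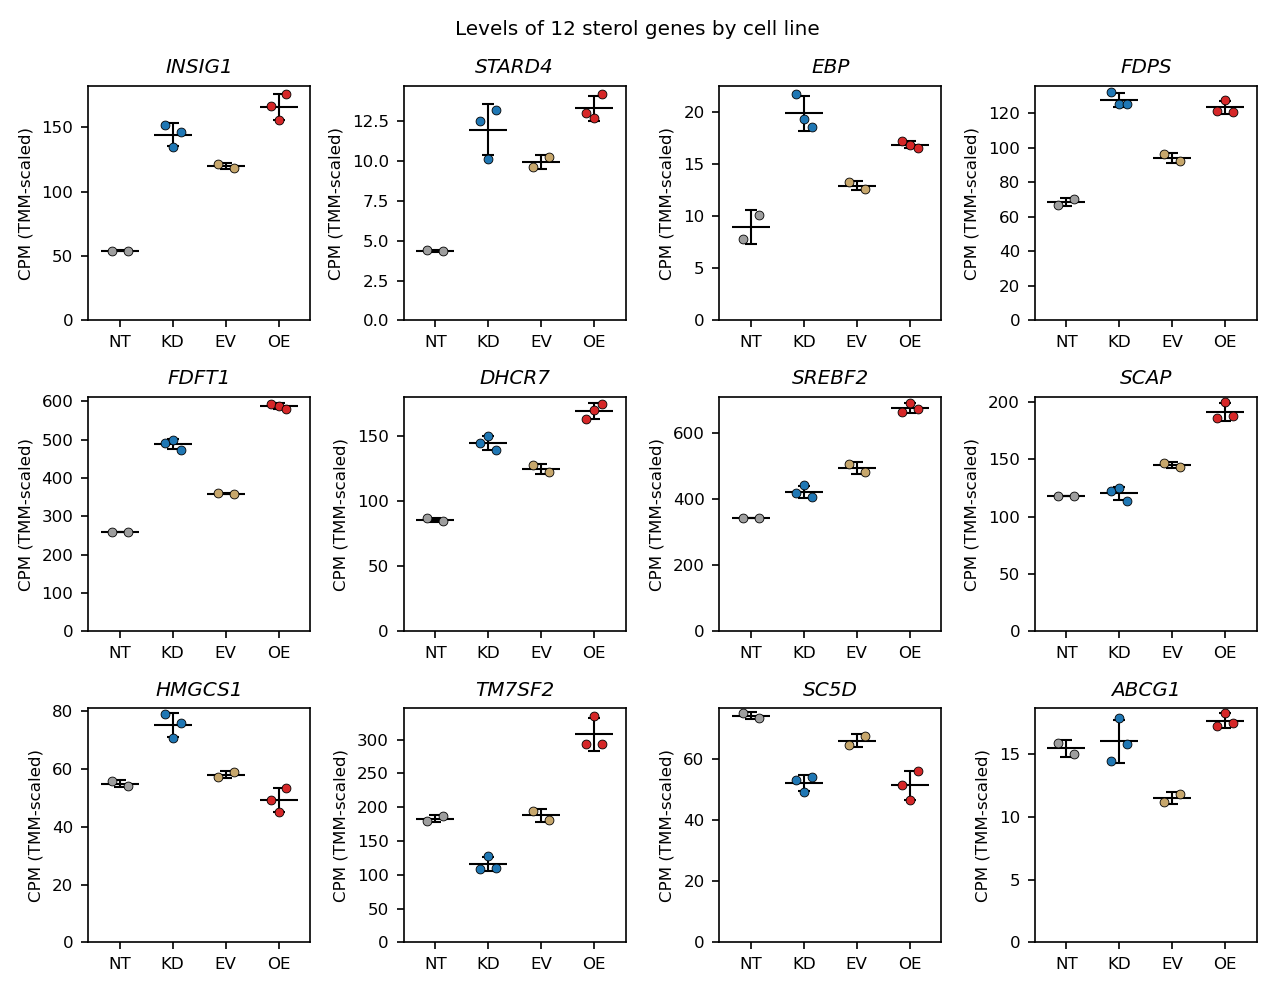
CPM (TMM-scaled) of 12 of the 29 genes in each library by line, with each point a library and the bar and whiskers the mean and SD of the line (NT and EV n = 2, KD and OE n = 3). INSIG1, STARD4, EBP, FDPS, FDFT1 and DHCR7 are lowest in NT, TM7SF2 is lowest in KD and highest in OE, and SC5D is highest in NT.

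Of the 8 genes from acetyl-CoA to the prenyl diphosphates, 7 rose in KD. FDPS, which makes farnesyl diphosphate, was at 66.8 and 70.3 CPM in NT and at 132.3, 125.5 and 125.5 in KD. ACAT2, the cytosolic thiolase that joins 2 acetyl-CoA, was at 15.7 and 16.9 CPM in NT and at 29.8, 23.9 and 25.6 in KD. HMGCS1, the cytosolic HMG-CoA synthase, was at 55.7 and 54.0 CPM in NT and at 78.8, 70.6 and 75.9 in KD. The 2 lines did not overlap in any of these 3. The rise was 0.90 ± 0.05 for FDPS (edgeR adjusted p = 3.7e-13), 0.70 ± 0.09 for ACAT2 (edgeR adjusted p = 2.48e-07) and 0.45 ± 0.06 for HMGCS1 (edgeR adjusted p = 1.63e-06). The kinases MVK and PMVK, the decarboxylase MVD and the isomerase IDI1 rose by 0.56, 0.39, 0.53 and 0.48. The one gene of the group that was not called was GGPS1, which diverts farnesyl diphosphate to geranylgeranyl diphosphate, at 19.4 and 19.7 CPM in NT and 19.2, 18.8 and 19 in KD.

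Of the 11 genes from squalene to cholesterol, 7 rose and 2 fell. FDFT1, squalene synthase, was at 259 and 260 CPM in NT and at 492, 499 and 474 in KD. DHCR7, the reductase of the last step of the Kandutsch-Russell branch, was at 87.0 and 84.9 CPM in NT and at 145, 150 and 140 in KD. LSS, which closes squalene epoxide to lanosterol, was at 66.8 and 66.7 CPM in NT and at 106, 115 and 105 in KD. The KD libraries were all above the NT libraries in these genes, by 0.91 ± 0.04 for FDFT1 (edgeR adjusted p = 1.74e-14), 0.75 ± 0.05 for DHCR7 (edgeR adjusted p = 6.51e-12) and 0.70 ± 0.06 for LSS (edgeR adjusted p = 1.6e-10). SQLE, the epoxidase before LSS, rose by 0.32, CYP51A1, which removes the first methyl group of lanosterol, by 0.56, and MSMO1, the next methyl oxidase, by 0.49. NSDHL, the decarboxylase, had a log2 fold change of 0.33 and an edgeR adjusted p of 0.000171, and HSD17B7, its partner ketoreductase, was at 11.5 and 10.4 CPM in NT and 11.8, 12 and 12.7 in KD, so neither was called.

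TM7SF2 and SC5D fell in KD, against the direction of the other called genes of these steps. TM7SF2, a reductase of the sterol ring whose function overlaps with that of the lamin B receptor, was at 179 and 186 CPM in NT and at 109, 128 and 110 in KD. SC5D, the desaturase before DHCR7, was at 74.8 and 73.2 CPM in NT and at 53.1, 49.2 and 54.1 in KD. Both NT libraries were above all KD libraries in each gene. TM7SF2 fell by 0.66 ± 0.07 (edgeR adjusted p = 5.74e-09) and SC5D by 0.50 ± 0.06 (edgeR adjusted p = 3.27e-07). When the fit was given an offset for GC content (chosen after seeing the data), the value of SC5D, whose transcripts have 37.1% GC, was -0.21 and was not called.

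Among the 4 regulators, INSIG1 and SREBF2 rose in KD. SREBF2 was at 343 and 344 CPM in NT and at 417, 441 and 407 in KD, without overlap, a rise of 0.30 ± 0.05 (edgeR adjusted p = 8.62e-06) that was 0.14 and not called with the offset for GC content. SCAP overlapped, at 118 and 118 CPM in NT and 122, 125 and 114 in KD. INSIG2, the second INSIG gene, was at 10.2 and 9.57 CPM in NT and 6.24, 7.34 and 7.50 in KD, lower in every KD library, with a log2 fold change of -0.49 and an edgeR adjusted p of 0.000844, above the limit. Thus the 2 INSIG genes had values of opposite sign, of which that of INSIG1 was called.

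Of the 6 genes of transport and turnover, 2 rose and 1 fell. NPC1 and NPC2 together pass cholesterol out of lysosomes. NPC1 was at 38.6 and 34.7 CPM in NT and 46.7, 46.4 and 47.3 in KD, a rise of 0.35 ± 0.06 (edgeR adjusted p = 5.05e-05), while NPC2 was at 51.2 and 51.7 CPM in NT and 40.2, 44.5 and 39.0 in KD, a fall of 0.32 ± 0.06 (edgeR adjusted p = 6.41e-05). Neither gene overlapped between the lines. ABCA1, the exporter of cholesterol to apolipoproteins, had only 29 and 35 counts in NT and 10, 11 and 14 in KD, with a log2 fold change of -1.52 ± 0.34 and an edgeR adjusted p of 0.000446, which missed the limit. ABCG1, the other LXR-induced exporter, and MYLIP, the LXR-induced ubiquitin ligase of lipoprotein receptors, overlapped between the lines and were not called.

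Several of the calls in KD against NT were lost without 1 library, while the differences kept their sign and most of their size. Without NT 2 the count of genes called was 11 in place of 21 (18.4% of all genes), and without NT 1 it was 14 (17.5% of all genes). In these fits NT is 1 library, which is assumed to vary like the other lines. Without NT 2, the values of HMGCS1, MVK, PMVK, MVD, IDI1, SQLE, CYP51A1, SREBF2, NPC1 and NPC2 were 0.43, 0.55, 0.45, 0.48, 0.36, 0.34, 0.52, 0.30, 0.28 and -0.31 and were not called. Without NT 1, MVK, PMVK, SQLE, CYP51A1, SREBF2, NPC1 and NPC2 were not called, at 0.56, 0.34, 0.29, 0.61, 0.29, 0.43 and -0.33. CYP51A1, IDI1, SQLE, NPC1 and NPC2 also lost their calls without KD 1 (0.49, 0.46, 0.31, 0.35 and -0.31) or without KD 3 (0.55, 0.42, 0.31, 0.34 and -0.28). NPC1 lost its call without OE 1 (0.35), and CYP51A1 and NPC2 theirs without EV 1, EV 2, OE 1 or OE 3, at 0.56 or 0.57 and at -0.33 to -0.32. The values of PMVK and SREBF2 moved to 0.24 and 0.14 with the offset for GC content, and neither was then called, while MSMO1 moved from 0.49 to 0.74. Without KD 2 the count was 21 (31.1% of all genes).

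Over-expression was compared with the empty vector to ask how the same genes stood when CPT1A was raised. In edgeR's test, 12 of the 29 genes were called in OE against EV (41.4%, against 21.9% of all genes), 11 higher and 1 lower (11.6% and 10.3% of all genes), with a median log2 fold change of 0.28 against -0.02 over all genes. No rise reached 1 on the log2 scale: the largest were 0.71 for both FDFT1 and TM7SF2 and 0.62 for ABCG1. The share of each role that was called was 2 of 8 mevalonate genes, 6 of 11 from squalene to cholesterol, 3 of 4 regulators and 1 of 6 transport genes.

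**Figure D3:**
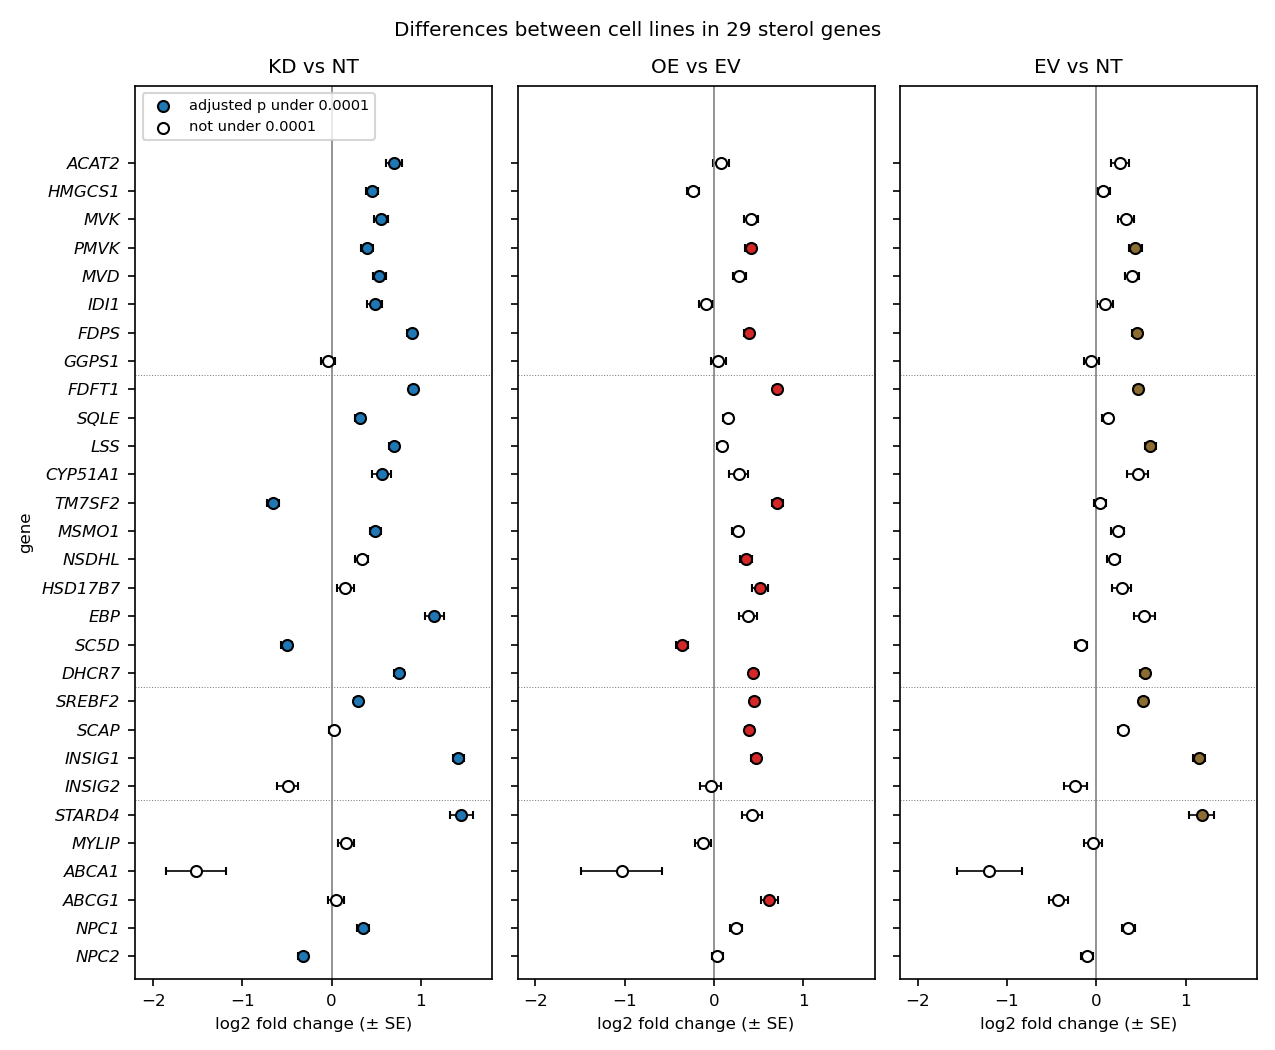
Log2 fold change with SE of the 29 genes in KD against NT, OE against EV and EV against NT, by edgeR on 10 libraries, with filled points for an adjusted p under 0.0001 and dotted lines between the roles. Filled points lie to the right of 0 for 18 genes in KD against NT, 11 in OE against EV and 8 in EV against NT, and to the left for 3, 1 and 0.

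The 3 core regulators rose together. SREBF2 was at 507 and 481 CPM in EV and at 662, 691 and 673 in OE. SCAP was at 147 and 143 CPM in EV and at 186, 200 and 188 in OE. INSIG1 was at 121 and 118 CPM in EV and at 167, 155 and 175 in OE. Every OE library was above both EV libraries for each of the 3. The rises were 0.45 ± 0.05 for SREBF2 (edgeR adjusted p = 2.89e-08), 0.40 ± 0.05 for SCAP (edgeR adjusted p = 5.22e-07) and 0.47 ± 0.06 for INSIG1 (edgeR adjusted p = 2.07e-07). INSIG2 overlapped, at 8.38 and 8.44 CPM in EV and 8.06, 7.15 and 9.32 in OE.

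From squalene to cholesterol, FDFT1, TM7SF2, NSDHL, HSD17B7 and DHCR7 rose in OE and SC5D fell. FDFT1 was at 360 and 359 CPM in EV and at 594, 588 and 580 in OE. TM7SF2 was at 195 and 181 CPM in EV and at 294, 335 and 293 in OE. DHCR7 was at 128 and 123 CPM in EV and at 163, 171 and 175 in OE. The lines did not overlap, and the rises were 0.71 ± 0.04 for FDFT1 (edgeR adjusted p = 6.74e-12), 0.71 ± 0.07 for TM7SF2 (edgeR adjusted p = 4.4e-09) and 0.44 ± 0.05 for DHCR7 (edgeR adjusted p = 1.04e-07). HSD17B7, which had 262 to 495 counts a library and whose pseudogene HSD17B7P2 had 32 to 71, was at 13.5 and 13.3 CPM in EV and at 17.6, 20.8 and 19.2 in OE, a rise of 0.52 ± 0.09 (edgeR adjusted p = 3.56e-05). NSDHL was at 26.6 and 26.3 CPM in EV and at 33.7, 33.7 and 34.6 in OE, a rise of 0.36 ± 0.07 (edgeR adjusted p = 7.35e-05). SC5D was at 64.3 and 67.3 CPM in EV and at 51.5, 46.4 and 55.9 in OE, a fall of 0.36 ± 0.07 (edgeR adjusted p = 6.52e-05). With the offset for GC content the value of SC5D changed sign, to 0.07, and was not called.

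LSS, which rose in KD, overlapped between the lines at 106 and 97.2 CPM in EV and 104, 107 and 112 in OE. MSMO1 and EBP had higher values in every OE library, with log2 fold changes of 0.26 and 0.38 and edgeR adjusted p of 0.000972 and 0.00258, and were not called. With the offset for GC content MSMO1 was 0.65 and was called. In the mevalonate steps, PMVK rose by 0.41 ± 0.06 (edgeR adjusted p = 6.53e-06), from 46.7 and 42.9 CPM in EV to 60.1, 61.1 and 57.5 in OE. FDPS rose by 0.39 ± 0.05 (edgeR adjusted p = 8.07e-07), from 96.3 and 92.1 CPM in EV to 121, 128 and 121 in OE. Neither overlapped. MVK, at 0.41, and MVD, at 0.28, had edgeR adjusted p of 0.000113 and 0.00158 and were not called. HMGCS1 had the opposite sign, at 57.0 and 58.8 CPM in EV and 49.3, 44.9 and 53.3 in OE, with a log2 fold change of -0.23 that was not called (edgeR adjusted p = 0.00424) and was 0.06 with the offset for GC content.

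ABCG1 was the transport gene that rose in OE, at 11.2 and 11.8 CPM in EV and 17.2, 18.3 and 17.5 in OE. The lines did not overlap, and the rise was 0.62 ± 0.09 (edgeR adjusted p = 7.37e-06). ABCA1 had 10 and 17 counts in EV and 9, 6 and 4 in OE and was not called. STARD4 and NPC1 were higher in every OE library, with log2 fold changes of 0.43 and 0.25 and an edgeR adjusted p of 0.002 each, and were not called. With the offset for GC content STARD4 was 0.82 and was called.

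Leaving out EV 2 brought the count in OE against EV from 12 to 5 (9.73% of all genes), with only FDFT1, TM7SF2, DHCR7, SREBF2 and INSIG1 called, and leaving out EV 1 brought it to 8 (11.5% of all genes). EV is then 1 library, assumed to vary like the other lines, and the values moved less than the calls. Without EV 2, PMVK, FDPS, NSDHL, HSD17B7, SC5D, SCAP and ABCG1 had values of 0.35, 0.36, 0.36, 0.51, -0.32, 0.38 and 0.66 and were not called. Without EV 1, the calls of NSDHL (0.39), HSD17B7 (0.55), SC5D (-0.38) and ABCG1 (0.59) were lost. NSDHL and SC5D also lost theirs without NT 1, NT 2, OE 1 or OE 2, NSDHL and HSD17B7 without OE 3, HSD17B7 without OE 2 and SC5D without KD 1, at values from -0.29 for SC5D to 0.52 for HSD17B7. The called genes that rose had 44.1% to 63.0% GC with a median of 54.5%, against a median of 45.6% for those not called, and with the offset for GC content PMVK (0.20), NSDHL (0.30) and SCAP (0.18) were not called, while SQLE (0.16 to 0.38), CYP51A1 (0.28 to 0.53), MSMO1 and STARD4 gained a call and SC5D lost it, so that the count was again 12, with 12 higher and 0 lower. The offset also lowered the values of genes that stayed called, to 0.25 for DHCR7, 0.27 for SREBF2, 0.46 for TM7SF2 and 0.26 for FDPS. With scaling to library size alone, which moved the median of all genes to -0.12, PMVK, NSDHL, HSD17B7 and ABCG1 were not called.

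FDPS, PMVK, FDFT1, DHCR7, SREBF2 and INSIG1 were called higher in both comparisons (6 of 29, 20.7%, against 5.3% of all genes). SC5D was called lower in both (1 of 29, against 642 of all 17230 genes). With the offset for GC content PMVK and SC5D lost their calls in both comparisons, and SREBF2 lost its call in KD against NT. TM7SF2 was the one gene of the 29 called in opposite directions. Of all 17230 genes, 1852 were called in both comparisons. Of these, 913 were higher in both, 642 lower in both and the rest called in opposite directions. The comparisons have different control samples.

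The control lines were compared with each other, since their difference enters each reading of OE beside KD. In EV against NT, 8 of the 29 genes were called by edgeR (27.6%, against 8.16% of all genes), 8 higher and 0 lower (5.25% and 2.91% of all genes). At an unadjusted p under 0.05 in edgeR it was 19 higher and 3 lower. The share of all genes at that unadjusted limit was not computed. The DESeq2 Wald test called 10 and limma-voom 8, with 0 lower in each. The median log2 fold change was 0.29, against -0.004 over all genes. The 8 were INSIG1, STARD4, LSS, DHCR7, SREBF2, FDFT1, FDPS and PMVK. This comparison shares the NT libraries with KD against NT.

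INSIG1 and STARD4 led here too. INSIG1 was at 121 and 118 CPM in EV against the 54.2 and 53.7 of NT, and STARD4 at 9.59 and 10.2 CPM in EV against 4.41 and 4.33. For both genes the EV libraries lay between NT and OE. INSIG1 was higher in EV by 1.15 ± 0.06 (edgeR adjusted p = 1.26e-12) and STARD4 by 1.18 ± 0.14 (edgeR adjusted p = 5.02e-07). LSS was higher by 0.61 ± 0.06 (edgeR adjusted p = 5.1e-08), DHCR7 by 0.54 ± 0.06 (edgeR adjusted p = 5.57e-08), SREBF2 by 0.52 ± 0.05 (edgeR adjusted p = 3.05e-08) and FDFT1 by 0.47 ± 0.05 (edgeR adjusted p = 5.59e-08). FDPS was higher by 0.46 and PMVK by 0.44. PMVK was 0.29 and not called with the offset for GC content. CPT1A had a log2 fold change of 0.29 (edgeR adjusted p = 9.8e-05). EBP, MVD, NPC1 and SCAP had log2 fold changes of 0.53, 0.40, 0.36 and 0.30 with edgeR adjusted p of 0.00097, 0.000425, 0.000322 and 0.000186, and ABCA1 and ABCG1 had -1.20 and -0.43 with 0.0135 and 0.00247. None of these 6 was called by edgeR at 0.0001, while SCAP (0.30) was called with a replicate block and ABCG1 (-0.54) with the offset for GC content. The count was 7 to 11 when 1 KD or OE library was left out (6.67% to 14.2% of all genes). The 11 came without KD 2, where 14.2% of all genes were called. PMVK was not called without NT 1, NT 2, EV 1, EV 2 or OE 1 (0.36 to 0.50), nor FDPS without NT 1 (0.42) or EV 1 (0.42). With that offset 8 were higher and 1 lower, and MSMO1 (0.46) was among them.

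The interaction subtracts the KD against NT difference from the OE against EV difference, and is the study's way of setting the OE and KD lines against each other. It called 6 of the 29 genes by edgeR (20.7%, against 15.9% of all genes), a share near the background, 1 higher and 5 lower (6.94% and 8.98% of all genes). TM7SF2 was higher by 1.37 ± 0.09 (edgeR adjusted p = 2.2e-11), from a rise in OE and a fall in KD. STARD4, INSIG1, HMGCS1, LSS and FDPS had lower values, of -1.03 ± 0.17 (edgeR adjusted p = 2.3e-05), -0.95 ± 0.08 (edgeR adjusted p = 1.27e-09), -0.69 ± 0.09 (edgeR adjusted p = 1.35e-06), -0.62 ± 0.08 (edgeR adjusted p = 6.99e-07) and -0.51 ± 0.07 (edgeR adjusted p = 2.99e-06). For STARD4, INSIG1, LSS and FDPS a larger difference from the control in KD stood beside a level that was already higher in EV than in NT. Without KD 2 the count was 12 of the 29, against 21.5% of all genes, further above the background than with all 10 libraries. The count was 10 with no filter on low counts, with a replicate block and with the offset for GC content (3 higher and 7 lower). The share of all genes was not computed for these settings. The 4 genes gained with the offset were EBP, DHCR7, SCAP and NPC2. EBP, ACAT2, IDI1 and SCAP had values of -0.77, -0.62, -0.57 and 0.37 with edgeR adjusted p of 0.000115, 0.000222, 0.00026 and 0.000144, which missed the limit. FDPS was not called without NT 1 (-0.47) or EV 1 (-0.46), nor STARD4 without NT 1, NT 2, KD 1, EV 1, EV 2 or OE 1 (-1.05 to -0.98).

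Setting OE directly beside KD leaves the controls out, though vector and drug then differ between the lines. Here 9 of the 29 genes were called by edgeR (31%, against 31.9% of all genes), a share at the background, 7 higher and 2 lower in OE (15.5% and 16.4% of all genes). TM7SF2 was higher by 1.41 ± 0.06 (edgeR adjusted p = 1.07e-15), with 294 to 335 CPM in the OE libraries and 109 to 128 in the KD libraries. SREBF2 was higher by 0.68 ± 0.04 (edgeR adjusted p = 1.24e-12), SCAP by 0.67 ± 0.04 (edgeR adjusted p = 5.35e-12) and HSD17B7 by 0.65 ± 0.08 (edgeR adjusted p = 1.68e-07). PMVK, FDFT1 and DHCR7 were higher by 0.45, 0.27 and 0.23. HMGCS1 and IDI1 were lower in OE, at -0.61 ± 0.06 (edgeR adjusted p = 2.39e-09) and -0.48 ± 0.07 (edgeR adjusted p = 3.57e-06). INSIG1 had a log2 fold change of 0.20 here and was not called (edgeR adjusted p = 0.00103), and STARD4 overlapped between OE and KD. With the offset for GC content 15 genes were called, 14 higher and 1 lower. The share of all genes called with the offset was not computed, so these 15 have no background beside them. IDI1 (-0.15) and DHCR7 (0.05) were not among the 15, while HMGCS1 was -0.33, PMVK 0.26 and INSIG1, now called, 0.26. With scaling to library size alone, FDFT1 was 0.14 and DHCR7 0.10, neither was called, and the split was 5 higher and 3 lower. DHCR7 was called only with all 10 libraries or without KD 2, at 0.20 to 0.26 without the others.

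At an adjusted p under 0.05 in edgeR, the counts of the 29 genes were 24 in KD against NT (57.5% of all genes), 21 in OE against EV (52% of all genes), 20 in EV against NT (34.1%), 17 in the interaction (44.3%) and 18 in OE against KD (59.8%). When a size of 1 or more on the log2 scale was also required, beside the limit of 0.0001, they were 3 in KD against NT (6.88% of all genes), 0 in OE against EV (2.94%), 2 in EV against NT (1.49%), 2 in the interaction (5.58%) and 1 in OE against KD (6.24%). For the 0 of OE against EV, 1 gene (ABCA1) was past 1 at an unadjusted p under 0.05 in edgeR, and DESeq2 and limma-voom also called 0.

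Of 35 other genes of the pathway, 33 passed the filter, all but CYP27A1 and CH25H. In KD against NT, edgeR called 13 higher and 3 lower (48.5%, against 29.1% of all genes), and in OE against EV 7 higher and 2 lower (27.3%, near the 21.9% of all genes). In EV against NT it called 5 higher and 0 lower (15.2%, against 8.16%), and DESeq2 and limma-voom also called 0 lower. An unadjusted p under 0.05 in edgeR gave 14 higher and 8 lower there, a limit for which the share of all genes was not computed. SREBF1, the gene of the fatty acid regulator SREBP-1, was at 282 and 275 CPM in NT, 580, 597 and 538 in KD, 412 and 400 in EV, and 526, 541 and 526 in OE. SCARB1, a receptor for high-density lipoprotein, was at 76 and 80.9 CPM in NT, 173, 175 and 170 in KD, 115 and 123 in EV, and 176, 178 and 175 in OE. NT was below every other library in both genes, and KD against NT gave log2 fold changes of 1.04 and 1.14 (edgeR adjusted p = 1.03e-14 and 2.04e-15). SOAT1, which esterifies cholesterol for storage, was at 13.1 and 15 CPM in NT, 33.3, 34.9 and 33.6 in KD, 38.8 and 40.9 in EV, and 20.4, 22.2 and 23 in OE. It rose by 1.27 in KD against NT (edgeR adjusted p = 1.14e-12) and fell by 0.87 in OE against EV (edgeR adjusted p = 7.57e-10), with OE still above NT. NR1H2, the gene of the receptor LXR-beta, was at 74.9 and 69.5 CPM in EV and 121, 123 and 118 in OE, a rise of 0.74 (edgeR adjusted p = 1.78e-10), and its KD and NT libraries overlapped between 65.6 and 72.9 CPM.

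Between genes, levels were compared per length, as CPM per kilobase of exon averaged over the 4 lines. FDFT1 was highest at 83.4, followed by SREBF2 at 60.0, TM7SF2 at 58.2, PMVK at 45.2 and INSIG1 at 33.1. STARD4 at 1.74 and ABCA1 at 0.0545 were lowest, and ABCA1 had 4 to 35 counts a library. The 3 genes with the largest rises in KD thus ranged from the upper part of this order (INSIG1) through the middle (EBP at 8.29) to its lower end (STARD4). Exonic bases were shared with another annotated gene by 15 of the 29 genes, and with a gene on the opposite strand by 13, among them HMGCS1, CYP51A1, GGPS1 and SREBF2. Strandedness of the counting is not given in the sources used here, so reads from those pairs cannot be told apart. Genes within 5 Mb of a sterol gene had median log2 fold changes from -0.50 (around CYP51A1) to 0.27 (around TM7SF2) in OE against EV, from -0.23 (STARD4) to 0.24 (MVD) in KD against NT, and from -0.19 (SQLE) to 0.25 (INSIG1) in EV against NT.

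**Figure D4:**
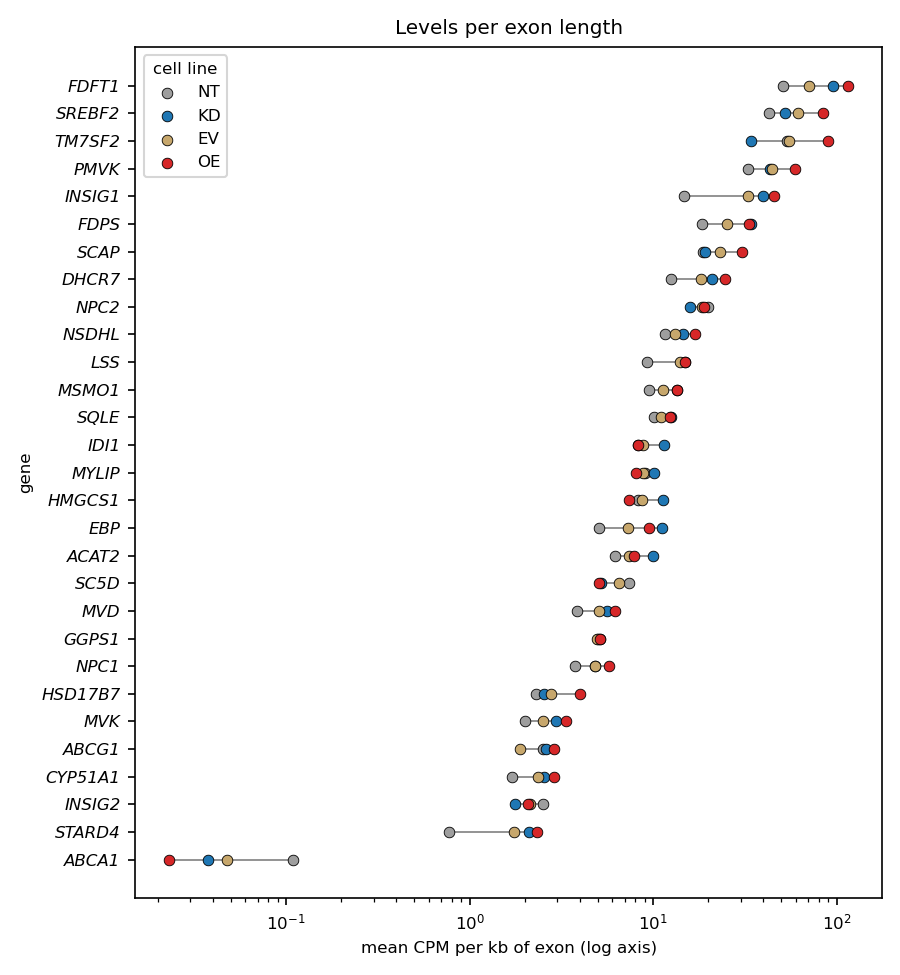
Mean CPM per kilobase of exon (log axis) of the 29 genes in each line, ordered by the mean over the lines, with a grey line from the lowest to the highest line. Means over the lines run from 0.0545 for ABCA1 to 83.4 for FDFT1, and the plotted line values from 0.0231 (ABCA1 in OE) to 115.6 (FDFT1 in OE). The spread between lines within a gene is small beside the spread between genes.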

How the data were processed

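RNA of 10 samples was sequenced as poly(A) libraries. The authors trimmed reads with BBDuk, discarded reads under 50 bp, and aligned and quantified them with STAR 2.6.0a on Ensembl release 96 transcripts (hg38.p12). The deposited values are raw counts per gene symbol. Strandedness and the handling of multi-mapping reads are not given in the sources used here.

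Samples were grouped by the line in their labels. Counts were filtered with filterByExpr, scaled with TMM and tested with the quasi-likelihood test of edgeR 4.0.16 in R 4.3.3, with 1 mean per line over all 10 samples and Benjamini-Hochberg adjustment over 17230 genes. A call is an adjusted p under 0.0001. The fit was tested on simulated data. Library depth was 23555205 to 28615770 counts. Positions, exon lengths and GC came from GENCODE v44 (GRCh38), matched by symbol for 29 of 29 genes. Of the 17230 genes tested, 13992 (81.2%) were matched. The fit with the GC offset, with its adjustment of p, and the medians within 5 Mb used only matched genes.

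Alternatives were DESeq2 size factors, library size alone, 2 other filters, DESeq2 1.42.0, limma 3.58.1 (voom), a replicate block, only the groups compared, other limits and leaving out each sample. A GC offset was added after the data were seen. Shares of all genes called were computed for the main fit, the other limits and leaving out each sample. They were not computed for an unadjusted p, the other alternatives or the GC offset. All members are named, and of the other pathway genes those with the 3 smallest p in OE against EV, KD against NT or EV against NT, apart from 1 that is not reported here. The members and lists were chosen with earlier results of these data known.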

Additional observations from a re-analysis of the deposited data

How the results depend on the processing

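Of 56 member values called over the 5 comparisons, 34 stayed called without each sample in turn and 0 changed sign. Leaving out 1 sample gave 5 to 13 genes called in OE against EV, 11 to 21 in KD against NT, 4 to 12 in the interaction, 6 to 11 in EV against NT and 8 to 11 in OE against KD. Apart from OE against KD, the low ends came without an NT or EV library, where that line is 1 library. The shares that follow do not cover those fits. Without 1 KD or OE library, 9 to 13 members and 16.8% to 28.9% of all genes were called in OE against EV. The ranges were 16 to 21 and 24.7% to 31.1% in KD against NT, and 5 to 12 and 12.9% to 21.5% in the interaction. For EV against NT they were 7 to 11 and 6.67% to 14.2%, and for OE against KD 8 to 11 and 25.9% to 36.3%. The highest shares came without KD 2. At an adjusted p under 0.05 the counts were 21 in OE against EV, 17 in the interaction, 20 in EV against NT and 18 in OE against KD. With a log2 fold change of at least 1 as well, edgeR called 0 in OE against EV (1, ABCA1, at an unadjusted p under 0.05), 3 in KD against NT, 2 in the interaction, 2 in EV against NT and 1 in OE against KD. Without a filter the interaction called 10 and OE against KD 14. With the offset for GC content the interaction called 10 and OE against KD 15. In OE against EV the offset changed the sign of SC5D (0.073), HMGCS1 (0.057), IDI1 (0.259), INSIG2 (0.394) and LSS (-0.113). The causes were not tested. The shorter SREBP motif was in 8 promoters in place of 1.

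Same-numbered samples of different lines had a mean correlation of -0.00282 over 13 pairs (-0.0443 to 0.0783) and others 0.00156 over 24. Values were centred within each line, which makes the 2 samples of NT, and those of EV, opposites. This check therefore cannot tell whether the numbers pair samples. With the replicate number as a block the count was 12 in OE against EV, 19 in KD against NT, 10 in the interaction, 9 in EV against NT and 9 in OE against KD. Counts under 36 a library limit ABCA1.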
